A study of Mus musculus with 6 samples.

Results

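Cage 3 of this study gave 2 of the 6 pools of RNA from mucosa of the terminal ileum, where the small intestine ends, and these were compared with the 4 pools of cages 1 and 2. Each cage held 1 litter of 129S6 mice and gave 1 pool of wild-type (wt) and 1 pool of duoxa-/- females, 3 months old and reared together. A pool was RNA of 2 to 3 animals, so the spread among the animals of a pool is not seen. Cage 3 was chosen by measured values, since its 2 pools deviate together from the others. Differences of cage 3 from cages 1 and 2 are therefore given as a description, without a test. The comparison is of 1 litter with 2, and litter, cage and any handling shared by the pools of a cage cannot be told apart.

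Duoxa-/- mice lack the maturation factors that bring the dual oxidases, which release hydrogen peroxide at the epithelial surface, to the cell membrane. All 6 pools were single-colour Affymetrix arrays with deposited log2 values, whose medians lay between 6.55 and 6.60 and whose number limits the precision. Duoxa2 read 8.81, 8.36 and 7.24 in the wt pools of cages 1, 2 and 3 and 5.90, 5.55 and 5.92 in the duoxa-/- pools, so each library went with its label, and the wt pool of cage 3 was the lowest of the 3 wt pools. Fabp6, the bile acid binding protein of the ileum, read 14.64 to 14.83 in all pools, while Lct, the lactase of the upper intestine, read 4.25 to 4.46. Averaged over the other arrays, the correlation across probe sets was lowest for the wt pool of cage 1 (r = 0.9944, against 0.9949 to 0.9961). Values without it are given for some genes and lists where it lies nearest to cage 3.

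Ileal enterocytes absorb fat, sugar, peptides and bile acids, and they carry the phase I oxidases, conjugating enzymes and efflux pumps that clear foreign compounds. Many of these genes are known to cycle over the day under the circadian clock, in which BMAL1 (encoded by Arntl) with CLOCK or NPAS2 drives the Per and Cry repressors, the Rev-erb repressors and the output factors DBP, TEF and HLF. Between and under the enterocytes lie secretory cells, tuft cells, mast cells, macrophages and fibroblasts, whose genes also contribute to a mucosal sample.

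Genes were counted as apart in both genotypes where both cage 3 pools lay beyond all 4 others and the difference from the mean of cages 1 and 2 of the same genotype was at least 1.5-fold in each genotype. Of 18193 genes, 42 were apart on the higher side (0.231%) and 27 on the lower side (0.148%). Without a limit on size, both cage 3 pools lay above all others in 1529 genes (8.4%) and below them in 1667 (9.16%). Counts of list genes beyond the other pools are to be read against these shares. The higher set spanned log2 differences of 0.61 to 2.04 (1.52- to 4.10-fold) and the lower set -2.43 to -0.67 (1.59- to 5.38-fold). The rule used these same values, so nothing is read from the counts. The smaller of the differences in the 2 genotypes was 0.593 for Dusp12 and 0.600 for Slc2a5, just inside the limit, and 0.579 for Insl5 and 0.577 for Mme, just outside it.

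The set of higher genes held enzymes, transporters and the clock repressors Per2 and Per3. The set of lower genes held mast cell proteases, defence proteins, fat-digesting proteins and matrix genes. The rule itself gives each of the 69 genes the same sign against cage 1 and against cage 2 taken separately. For 19 of the higher and 16 of the lower genes there was more than 1 probe set, and all probe sets of the gene had the same sign in both genotypes for 13 and 10 of them.

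**Figure D1:**
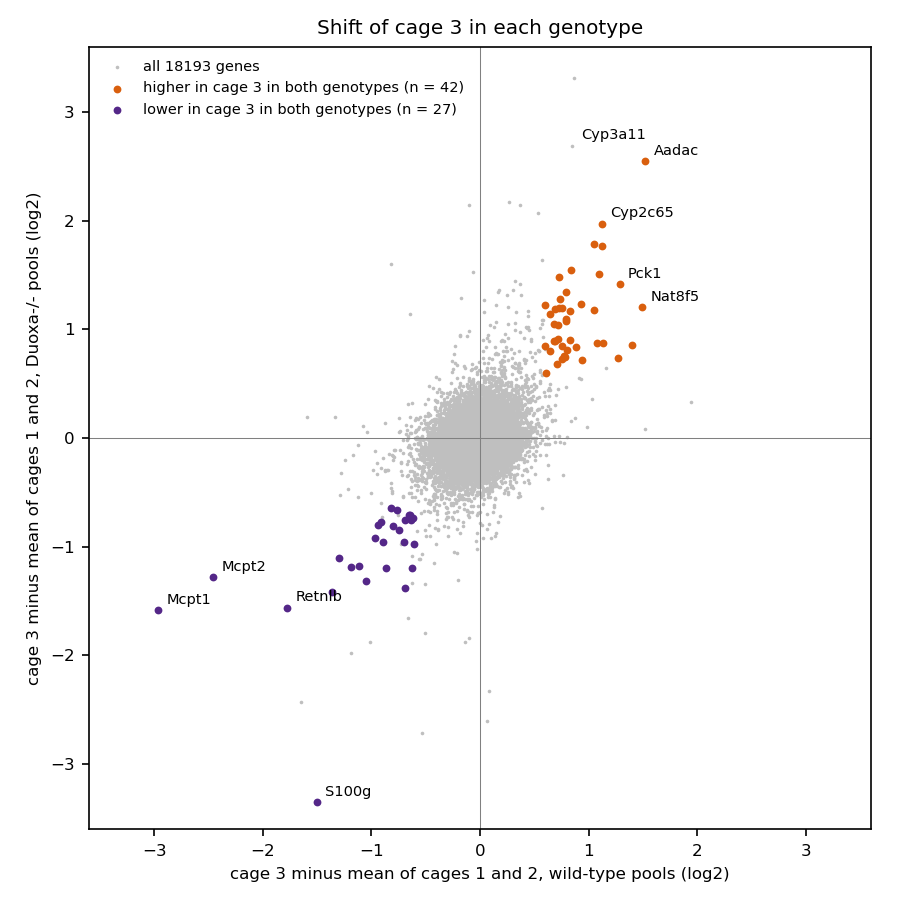
Difference of cage 3 from the mean of cages 1 and 2 (log2) in the wild-type pools (x axis) and the Duoxa-/- pools (y axis), with 1 point per gene. The 42 genes apart on the higher side lie at the upper right and the 27 on the lower side at the lower left, since the counting rule placed them there.

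Across all genes the 2 differences of a gene correlated with r = 0.34 (18193 genes, which share arrays and are not independent replicates). Among genes at or above the median level of the probe sets (6.58) r was 0.41 (11607 genes). The differences share no pool, but the cage described here was chosen because its pools deviate together. Each r measures that same joint deviation, so it is a description and not independent agreement between the genotypes. In the higher set the median difference was 0.79 in wt and 1.06 in duoxa-/- pools, and the difference was the larger one in duoxa-/- pools for 30 of 42 genes. In the lower set the medians were -0.87 and -0.96, and the difference was larger in size in duoxa-/- pools for 18 of 27 genes. With cage 2 as the only wt pool to compare with (without the wt pool of cage 1), the wt medians were 0.94 and -0.89, and the duoxa-/- difference was the larger one for 26 of 42 and 11 of 27 genes.

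Limma's interaction term compared the shift of cage 3 between genotypes. Cage 3 was chosen because its pools deviate together, which favours a small interaction, so these counts are a description. It called 0 of 18193 genes (0.0%), with 468 genes at an unadjusted p under 0.05 and a smallest adjusted p of 0.2139. With a median SE of 0.205 these 6 pools leave room for sizeable differences between the genotypes. For S100g, which encodes a calcium carrier, the shift was -1.51 in wt and -3.35 in duoxa-/- pools.

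Cages 1 and 2, which cage 3 was set against, were compared with each other in the same way, with cages as 3 levels and genotype in the fit. Limma called 0 genes (0.0%), with 732 at an unadjusted p under 0.05 and a smallest adjusted p of 0.565. Without the duoxa-/- pool of cage 1, 9 genes were called. Genotype with cage 3 in the fit also gave 0 calls (0.0%), with 1155 at an unadjusted p under 0.05. In the contrast that chose cage 3, the same fit put Nat8f5 past an adjusted p of 0.05 (1 gene, 0.0055%), with 1516 at an unadjusted p under 0.05. Against cage 1 alone 0 genes (0.0%, 1018 unadjusted) and against cage 2 alone Nebl and Igkv15-103 (2 genes, 0.011%) passed it. These counts describe the contrast and test nothing. Without the wt pool of cage 1, 46 genes passed in the contrast with both cages (28 higher, 18 lower), and in the paired fit with each cage number as a replicate block 3 passed, Nat8f5, Nebl and Igkv15-103.

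**Figure D2:**
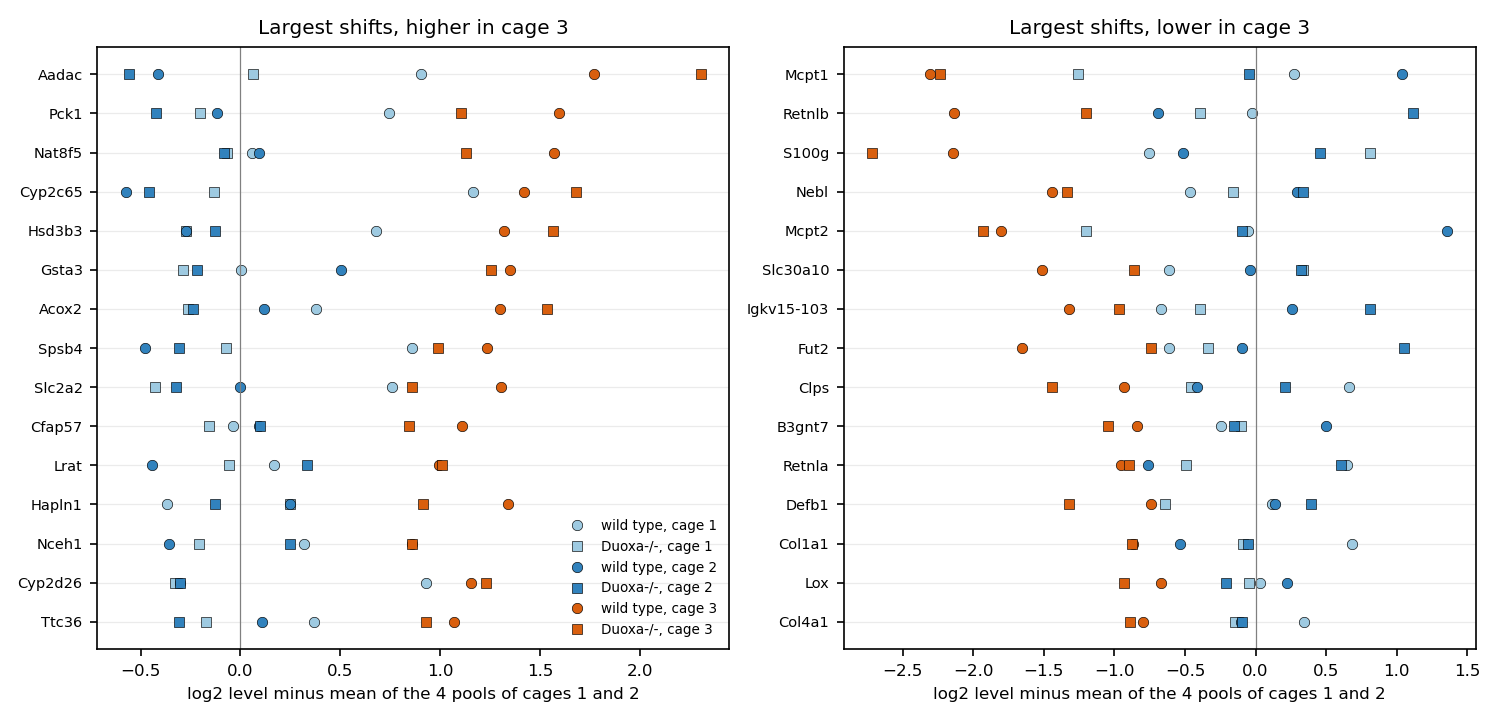
Level of the 15 genes with the largest shifts in each direction in each of the 6 pools (x axis, log2 level minus the mean of the 4 pools of cages 1 and 2), ordered by the smaller of the differences in the 2 genotypes. The orange cage 3 symbols lie beyond all blue symbols by construction. Among the higher genes for which the pale blue circle of the wild-type pool of cage 1 lies nearest to them are Aadac, Pck1, Hsd3b3, Acox2, Slc2a2, Cyp2c65, Cyp2d26 and Spsb4.

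Of the sugar transport, fructolysis and gluconeogenesis genes, 4 of 24 were apart on the higher side, namely Pck1, Slc2a2, Fbp1 and Slc2a5. Pck1, the enzyme that makes phosphoenolpyruvate at the start of gluconeogenesis, read 10.64 in the wt and 10.15 in the duoxa-/- pool of cage 3, against 9.79 and 8.84 in cage 1 and 8.93 and 8.62 in cage 2. The groups did not overlap, and the wt pool of cage 1 was the closest. The difference of cage 3 from cages 1 and 2 was 1.35 (limma SE 0.22), and 0.89 as the mean over its probe sets. Fbp1, the bisphosphatase of the same pathway, read 10.30 and 10.32 in cage 3 and 9.12 to 9.80 in the others (difference 0.87, SE 0.15).

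Slc2a2, which encodes the basolateral glucose and fructose transporter GLUT2, read 8.78 (wt) and 8.33 (duoxa-/-) in cage 3, against 8.23 and 7.04 in cage 1 and 7.47 and 7.15 in cage 2. The wt pool of cage 1 was again the closest, just under the duoxa-/- pool of cage 3. Slc2a5, the apical fructose transporter GLUT5, read 9.38 and 8.87 in cage 3 and 8.22 to 8.80 in the others. Khk, the kinase that phosphorylates fructose, read 10.75 and 10.77 against 10.07 to 10.47, beyond the others but under the limit in wt pools (0.36, against 0.67 in duoxa-/- pools). In the list 9 genes lay beyond all other pools on the higher side (8.4% of all genes did) and 4 on the lower side (9.16%), with a median difference of 0.06 against -0.007 over all genes. The lower ones included Slc2a1, the glucose transporter GLUT1 (-0.38, SE 0.11), and Pfkfb3, which makes the activator of glycolysis fructose 2,6-bisphosphate (-0.69, SE 0.18).

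**Figure D3:**
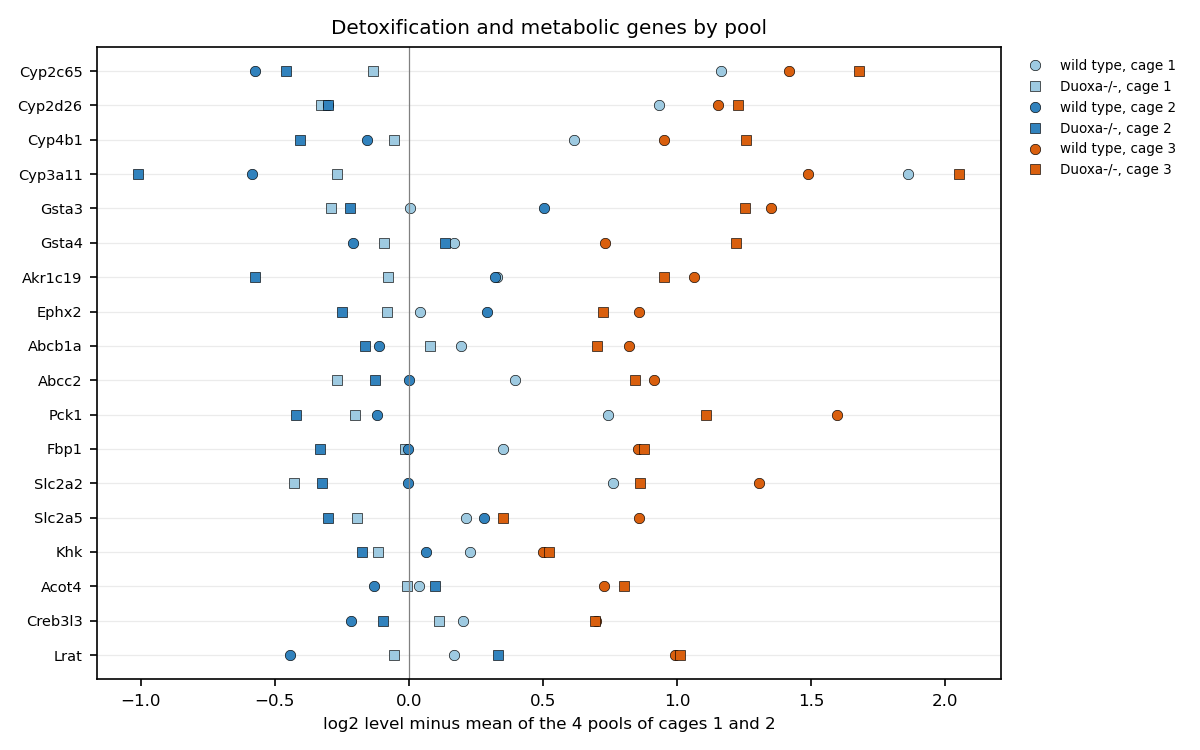
Detoxification and metabolic genes in each of the 6 pools (x axis, log2 level minus the mean of the 4 pools of cages 1 and 2). Cyp3a11 is the exception in the plot, since the wild-type pool of cage 1 (11.70) lies between the cage 3 pools (11.33 and 11.89).

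Among fatty acid oxidation, ketogenesis and PPAR target genes 9 of 33 lay beyond the other pools on the higher side (8.4% of all genes did) and 0 on the lower side (9.16%). The median difference was 0.11 (0.01 in wt and 0.23 in duoxa-/- pools). Apart were Acot4, a peroxisomal thioesterase (8.56 and 8.63 in cage 3, 7.70 to 7.93 in the others), and Creb3l3, a membrane-bound transcription factor of lipid metabolism (10.57 and 10.56, against 9.65 to 10.07). Ppara, the fatty acid receptor, read 9.55 and 9.36 in cage 3 and 8.49 to 9.23 in the others. Acox2, the peroxisomal oxidase of branched chains and bile acid precursors, had a wide gap, at 9.33 and 9.56 against 8.41 and 7.76 in cage 1 and 8.14 and 7.79 in cage 2 (difference 1.42, SE 0.17). Ppard, the receptor related to Ppara, went the other way, at 8.58 and 8.25 against 8.91 to 9.38.

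Of the fat absorption and chylomicron genes 9 of 19 lay beyond the others on the higher side (8.4% of all genes did), by small amounts for the most abundant of them. On the lower side 1 (Clps) did (9.16% of all genes). The list median was 0.14 (0.03 in wt, 0.25 in duoxa-/- pools). Apoa4, an apolipoprotein of chylomicrons, read 12.11 and 12.21 in cage 3 and 11.03 to 11.80 in the others (difference 0.67, SE 0.22). Aadac, a microsomal lipase and esterase, had the largest difference of the higher set. It read 8.36 (wt) and 8.90 (duoxa-/-) in cage 3, against 7.50 and 6.66 in cage 1 and 6.18 and 6.04 in cage 2, a difference of 2.04 (SE 0.39, 4.10-fold). Nceh1, which hydrolyses cholesterol esters, read 9.48 and 9.49 against 8.27 to 8.94. Hsd17b13, a lipid droplet enzyme, read 11.63 and 11.91 against 10.55 to 11.26. With the mean of all probe sets the differences of Nceh1 and Hsd17b13 were 0.50 and 0.53, against 0.86 and 0.96.

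Of the proteins that digest fat in the gut lumen, Clps and Pnliprp2 lay lower, while Pnliprp1 and Cel did not lie beyond the other pools. Clps, the cofactor of lipase, read 11.30 and 10.79 in cage 3 against 11.77 to 12.89, and Pnliprp2, a lipase for milk fat and galactolipids, read 12.56 and 11.85 against 12.63 to 13.88. For Pnliprp2 the wt pools of cages 2 and 3 differed by little (12.63 and 12.56). Markers of pancreatic acinar cells, which also make these proteins, had a median of -0.01 over 13 genes (Clps among them, list mean 7.43 to 7.97 in cages 1 and 2 and 7.40 to 7.47 in cage 3), while the proteases Prss2 and Cela1 read 6.73 to 7.02 and 8.61 to 8.83 in all pools. In the fatty acid synthesis list 5 of 17 genes lay beyond the others on the lower side (9.16% of all genes did). On the higher side 1 did (8.4% of all genes), and the median was -0.14. Me1, malic enzyme, a source of NADPH for this synthesis, read 10.63 and 10.15 against 10.79 to 11.45, and the desaturase Fads1 read 8.25 and 8.27 against 8.50 to 8.63 (-0.32, and -0.14 with the mean of all probe sets).

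In vitamin A handling, Lrat, which esterifies retinol for transport and storage, was apart at 8.79 and 8.81 in cage 3, against 7.97 and 7.74 in cage 1 and 7.35 and 8.13 in cage 2 (difference 1.0, SE 0.19, and 0.50 with the mean of all probe sets). Bco1, which cleaves beta-carotene to retinal, read 8.59 and 8.43 against 7.92 to 8.05, so its 4 other pools were tight. Slc30a10, a manganese exporter, lay on the lower side at 7.76 and 8.41 against 8.66 to 9.61. S100g, calbindin-D9k, the vitamin D-dependent calcium carrier of the enterocyte, had the largest difference of all 69 genes. It read 7.16 (wt) and 6.59 (duoxa-/-) in cage 3, against 8.55 and 10.12 in cage 1 and 8.79 and 9.77 in cage 2 (difference -2.43, SE 0.36). In cages 1 and 2 the duoxa-/- pool was above the wt pool, and in cage 3 it was below it.

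Cholesterol synthesis (5 of 22 beyond the others on the higher side, 0 on the lower, median 0.06), peptide and amino acid transport (3 and 1 of 19, median 0.08), brush border hydrolases (1 and 1 of 15, median 0.08), glycolysis (1 and 2 of 14, median -0.10), amino acid and urea cycle enzymes (2 and 5 of 24, median -0.01) and respiratory chain subunits (5 and 4 of 25, median -0.01) held 0 genes apart in both genotypes. Of the ileal bile acid genes 3 of 13 lay beyond the others on the higher side and 1 (Ceacam1) on the lower side, and Abcc2, an efflux pump for conjugates, was apart. For all of these lists the shares over all genes were 8.4% on the higher and 9.16% on the lower side.

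Detoxification genes lay higher in cage 3 in all 3 enzyme lists. Over all genes 8.4% lay beyond the other pools on the higher side and 9.16% on the lower side. Of the cytochrome P450 and flavin monooxygenases, the phase I oxidases, 21 of 26 had a positive difference, 8 lay beyond the other pools on the higher side and 1 on the lower side, and the median was 0.23. Conjugating enzymes had 28 of 32 positive, 14 and 0 beyond the others, and a median of 0.20. Esterases with aldehyde, alcohol and aldo-keto dehydrogenases had 26 of 31 positive, 13 and 2 beyond the others, and a median of 0.25. In each list the median was larger in duoxa-/- pools (0.28, 0.27 and 0.41) than in wt pools (0.16, 0.10 and 0.10). For the P450 list the mean level of the wt pool of cage 1 was 8.97, close to the cage 3 pools (9.0 and 9.01), while the other 3 pools were at 8.37 to 8.56. Without that pool the wt medians of the 3 lists were 0.23, 0.10 and 0.08.

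Cyp2c65, an oxidase of fatty acids and drugs, read 9.99 (wt) and 10.25 (duoxa-/-) in cage 3, against 9.74 and 8.44 in cage 1 and 8.0 and 8.12 in cage 2 (difference 1.55, SE 0.43). Its probe set is of a kind that can detect related transcripts. Cyp2d26 read 11.14 and 11.21 in cage 3, 10.91 in the wt pool of cage 1 and 9.66 to 9.68 in the other 3. Both genes thus had 1 high pool outside cage 3, the same one. Cyp4b1, a fatty acid hydroxylase, read 10.63 and 10.93 against 9.27 to 10.29 (0.72 in wt and 1.49 in duoxa-/- pools), and Cyp2c68 read 9.59 and 9.83 against 8.54 to 9.04. Cyp3a11, the main drug-metabolising P450 of its family, was not apart, since the wt pool of cage 1 stood at 11.70 beside 11.33 and 11.89 in cage 3, with 8.83 to 9.57 in the other 3. Its difference was 0.85 in wt and 2.69 in duoxa-/- pools, and 2.07 in wt without the wt pool of cage 1, whereupon both cage 3 pools lay above the remaining 3.

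The glutathione transferases Gsta3 and Gsta4 had a cleaner separation, while the measured Gstm genes, Gstp1 and Gstk1 did not lie beyond the other pools. Gsta3 read 9.14 and 9.05 in cage 3, against 7.80 and 7.50 in cage 1 and 8.30 and 7.58 in cage 2 (difference 1.30, SE 0.16). Gsta4, which removes the lipid peroxidation product 4-hydroxynonenal, read 10.64 and 11.13 against 9.71 to 10.08. The glucuronosyltransferases Ugt2b5 (0.52, SE 0.12) and Ugt2b36 (0.57, SE 0.14) lay beyond the other pools but did not reach 1.5-fold in the wt pools.

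Akr1c19, an aldo-keto reductase, read 9.96 and 9.85 in cage 3 against 8.32 to 9.23, and its relatives Akr1c12, Akr1c13 and Akr1c14 lay beyond the others by 0.46, 0.51 and 0.45. Ephx2, the soluble epoxide hydrolase, read 10.65 and 10.52 against 9.54 to 10.08. The carboxylesterase Ces1g read 7.89 and 8.12 against 6.31 to 7.34, with a difference of 0.57 in wt and 1.64 in duoxa-/- pools. Adh1 and Adh6a, alcohol dehydrogenases, were the exceptions of this list on the lower side (-0.32, SE 0.14, and -0.36, SE 0.14).

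Among efflux pumps and xenobiotic sensors (5 beyond the others on the higher side and 4 on the lower side, of 18, median -0.02), 2 pumps were apart. Abcb1a, which encodes the apical pump P-glycoprotein, read 13.80 and 13.68 in cage 3, against 13.17 and 13.06 in cage 1 and 12.87 and 12.81 in cage 2 (difference 0.76, SE 0.12). Abcc2 read 11.01 and 10.94 against 9.83 to 10.49, on a probe set of a kind that can detect related transcripts. Slc47a1, an exporter of organic cations, read 9.44 and 9.22 against 7.85 to 8.80. The sensors differed little, with Nr1i2 (the pregnane X receptor) at 9.72 and 9.74 against 9.51 to 9.68 and Nr1i3 (the constitutive androstane receptor) at 6.28 and 6.45 against 5.69 to 6.22. Of the NRF2 targets and peroxide-removing enzymes 7 of 21 lay beyond the others on the higher side and 2 on the lower side, among them Gclc, which makes the glutathione precursor (0.44, SE 0.10), and Gpx2, the glutathione peroxidase of the gut (-0.36, SE 0.13). For both lists the shares over all genes were 8.4% on the higher and 9.16% on the lower side.

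Nat8f5 and its neighbour Nat8, acetyltransferase genes of chromosome 6 with 0 protein-coding genes between them, were both apart. Nat8f5 read 9.26 and 8.82 in cage 3, and its 4 other pools lay within 7.61 to 7.78 (difference 1.35, SE 0.09). Nat8, which acetylates cysteine conjugates, read 10.28 and 10.25 against 9.32 to 9.58. Each had 1 probe set, and close relatives of this family can share probes. Hsd3b3, a steroid dehydrogenase, read 8.84 and 9.09 against 8.20 in the wt pool of cage 1 and 7.25 to 7.39 in the others.

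Enterocyte markers lay on the same side by less. Their counts are set against 8.4% of all genes on the higher and 9.16% on the lower side. Of 11 enterocyte markers 4 lay beyond the other pools on the higher side and 0 on the lower side (median 0.12, list mean 12.42 and 12.48 in cage 3 and 12.11 to 12.53 in cages 1 and 2). Markers of the distal small intestine (5 of 12 higher, 0 lower, median 0.11, list mean 12.83 and 12.85 against 12.65 to 12.87) and of the proximal small intestine (4 of 13 higher, 2 lower, median 0.12, list mean 8.27 and 8.24 against 7.82 to 8.31) had like medians, and the proximal list holds Slc2a2, Khk and Apoa4, described above. Gata4, a transcription factor of the upper intestine, read 5.57 and 5.44 in cage 3 and 5.29 to 5.59 in the others. The list means of all 3 overlapped between cage 3 and the other cages, and their part in the metabolic and detoxification values was not tested. In these mucosal samples fewer cells of a type and less RNA per cell cannot be told apart.

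The clock lists had members on both sides. The promoters of the clock genes apart in both genotypes are shown for the 3 that the RefSeq promoter table holds (GRCm38.p6, 250 bases before to 50 after the gene's start, read 5′ to 3′ on the gene's strand, here the minus strand for all 3), as the windows that were searched for sites that clock factors are known to bind. Capitals mark matches to the D-box (TTATGTAA or TTATGCAA, bound by DBP, TEF, HLF and NFIL3) and to the RORE (TAGGTCA, bound by ROR and Rev-erb proteins, here on the opposite strand and so printed as TGACCTA). The E-box CACGTG was searched too, both strands were read for each motif, and none of the matches overlap.
Per3: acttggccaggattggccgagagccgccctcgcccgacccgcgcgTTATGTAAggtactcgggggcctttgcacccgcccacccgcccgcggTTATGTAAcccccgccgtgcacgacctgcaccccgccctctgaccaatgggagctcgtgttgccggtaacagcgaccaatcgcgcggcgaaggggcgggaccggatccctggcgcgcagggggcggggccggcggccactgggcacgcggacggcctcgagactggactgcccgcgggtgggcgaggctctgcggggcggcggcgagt
Nfil3: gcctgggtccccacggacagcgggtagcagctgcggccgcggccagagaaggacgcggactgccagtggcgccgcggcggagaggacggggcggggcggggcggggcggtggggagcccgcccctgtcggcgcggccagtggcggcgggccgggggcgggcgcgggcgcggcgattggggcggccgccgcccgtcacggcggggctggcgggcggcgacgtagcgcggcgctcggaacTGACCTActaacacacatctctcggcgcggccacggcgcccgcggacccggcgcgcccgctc
Hlf: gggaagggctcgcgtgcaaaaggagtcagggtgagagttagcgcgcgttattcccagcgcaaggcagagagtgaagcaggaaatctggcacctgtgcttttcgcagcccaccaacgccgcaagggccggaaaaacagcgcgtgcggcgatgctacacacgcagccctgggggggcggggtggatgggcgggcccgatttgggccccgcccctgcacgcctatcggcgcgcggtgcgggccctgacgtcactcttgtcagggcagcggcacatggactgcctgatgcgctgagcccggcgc
Per3 (chr4:151044616-151044915) held 2 D-boxes, at 205 to 198 and 158 to 151 bases before the start. Nfil3 (chr13:52980990-52981289) held 1 RORE at 12 to 6 bases before the start, and the Hlf window (chr11:90390868-90391167) held none of the 3 motifs. Over 27025 promoters of the same length, 1.74% held a D-box, 2.64% a RORE and 7.24% an E-box, and 12 promoters (0.0444%) held more than 1 D-box. Among the 37 higher genes with a promoter in the table, 1 held a D-box (Per3), 1 a RORE (Hsd17b13) and 3 an E-box (Nceh1, Cfap57 and Acot4). Among the 17 lower genes 0 held a D-box, 2 a RORE (Nfil3 and Retnla) and 2 an E-box (B3gnt7 and Mfsd4a). A match is a description of letters and not evidence of binding.

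Per2 and Per3, repressors of the clock's negative limb, were the higher core clock genes. Per2 read 10.27 (wt) and 9.82 (duoxa-/-) in cage 3, against 8.91 and 8.95 in cage 1 and 9.10 and 9.22 in cage 2 (difference 1.0, SE 0.14, 2.00-fold). Per3 read 9.54 and 9.21, against 8.54 and 8.48 in cage 1 and 8.65 and 8.49 in cage 2 (difference 0.83, SE 0.09, and 0.46 with the mean of all probe sets). The 4 other pools were close together for both genes, and the wt pool of cage 3 was the highest. All 3 probe sets of Per2 and 5 of 6 of Per3 had this sign in both genotypes.

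Cry2, the repressor that partners the PER proteins, read 8.31 and 8.02 in cage 3 against 7.40 to 7.86, just under the limit. Per1 was higher in the wt pool of cage 3 alone, at 9.25, with the duoxa-/- pool at 8.61 inside the range of the others (8.45 to 8.70). Cry1 was within the range of the others (8.25 and 8.28 against 7.72 to 8.45). Nr1d2, which encodes the repressor REV-ERB beta, read 12.49 and 12.16 against 11.86 to 12.11, while Nr1d1, for REV-ERB alpha, read 7.88 and 7.70 against 7.81 to 8.09.

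The activators of the positive limb lay on the lower side. Arntl read 7.97 and 8.57 in cage 3, against 8.77 and 9.13 in cage 1 and 8.80 and 8.94 in cage 2 (difference -0.64, SE 0.11). Npas2, the partner of BMAL1 that can replace CLOCK, read 6.68 and 7.21 against 7.64 to 8.31 (difference -0.91, SE 0.22, and -0.49 with the mean of all probe sets). Clock read 9.51 and 9.55 against 9.67 to 9.78, a small difference of -0.20 that was -0.02 with the mean of all probe sets. The difference for Arntl and Npas2 was larger in the wt pools (-0.82 and -1.29) than in the duoxa-/- pools (-0.46 and -0.53), the limit of 1.5-fold being missed in the latter.

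**Figure D4:**
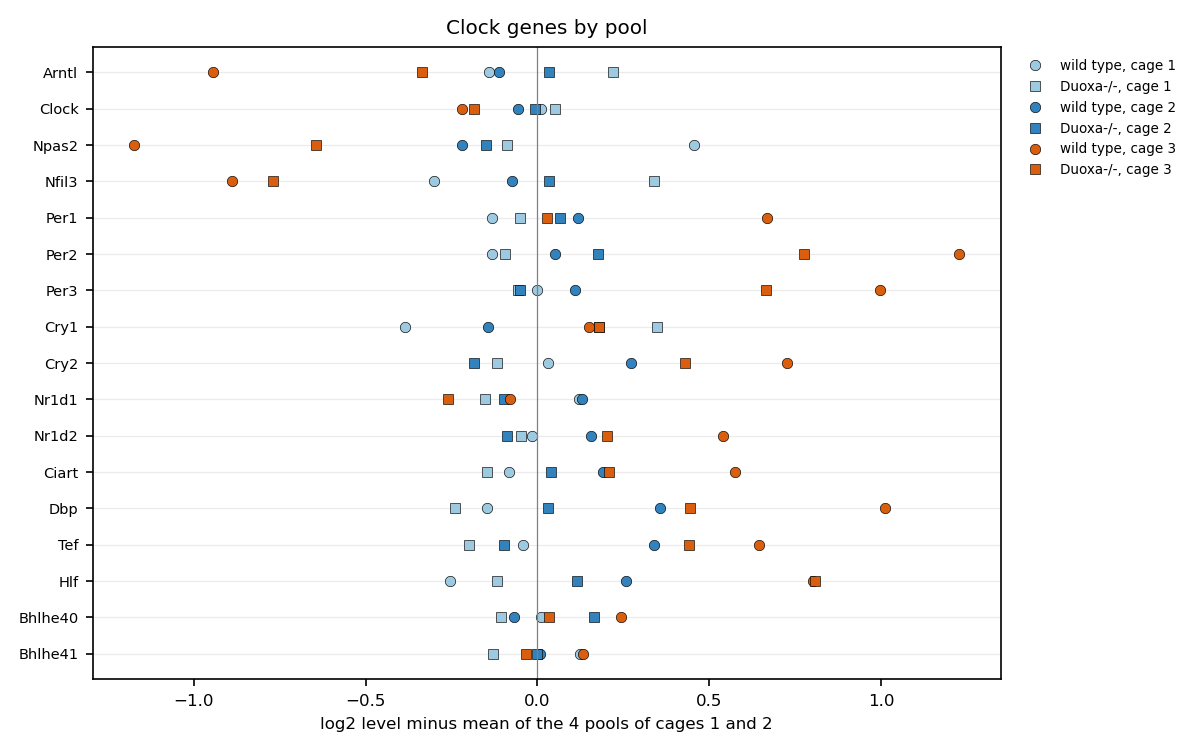
Clock genes in each of the 6 pools (x axis, log2 level minus the mean of the 4 pools of cages 1 and 2). Arntl, Npas2 and Nfil3 lie to the left and Per2, Per3, Cry2, Dbp, Tef and Hlf to the right in both cage 3 pools. The wild-type pool (orange circle) is farther out than the Duoxa-/- pool (orange square) for each of these except Hlf, where they are level.

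The output factors of the PAR bZIP family, which bind the D-box, were on the higher side and Nfil3 on the lower. Hlf read 8.17 and 8.18 in cage 3 against 7.12 to 7.63 (difference 0.80, SE 0.15). Dbp read 11.53 and 10.96 against 10.27 to 10.87, and Tef read 10.81 and 10.60 against 9.96 to 10.50. Nfil3, which represses from the same site, read 6.92 and 7.04 against 7.51 to 8.15 (difference -0.83, SE 0.12). Of the 14 core clock genes measured 5 lay beyond the other pools on the higher side (Per2, Per3, Cry2, Nr1d2 and Ciart) and 4 on the lower side (Arntl, Clock, Npas2 and Csnk1e), with a median of 0.28 in wt and 0.02 in duoxa-/- pools. Of the 15 output factors and targets 5 lay on the higher and 1 on the lower side. Of all genes 8.4% lay on the higher and 9.16% on the lower side. Bhlhe40, Bhlhe41, Csnk1d, Rora, Hes1, Wee1, Nampt, Leo1, Usp2, Slc9a3 and Noct did not lie beyond the others, and Noct differed by 0.62 in wt and -0.38 in duoxa-/- pools.

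Among immune and defence genes 2 mast cell proteases were apart on the lower side. Mcpt1, a chymase of mucosal mast cells in the epithelium, read 4.56 (wt) and 4.63 (duoxa-/-) in cage 3, against 7.14 and 5.61 in cage 1 and 7.91 and 6.82 in cage 2 (difference -2.27, SE 0.42). Mcpt2, its neighbour on chromosome 14, read 6.08 and 5.96 against 6.68 to 9.24 (difference -1.87, SE 0.46). In cages 1 and 2 both were lower in the duoxa-/- pool than in the wt pool, while the cage 3 pools were level. Mcpt1 in cage 3 lay near the level of Lct (4.25 to 4.46) and well under the median of all probe sets (6.58), where log2 values are compressed, so its difference is not a measure of fold. Of the other mast cell markers Cpa3, a carboxypeptidase (4.68 and 4.74 against 4.85 to 6.20), and Fcer1a, a chain of the IgE receptor (3.94 and 3.83 against 4.17 to 4.84), also lay beyond the others. In cage 3 Fcer1a read below Lct and Cpa3 little above it, so both rest on dim signal. In all, 4 of 12 markers lay beyond the others on the lower side, where 9.16% of all genes lay. Mcpt4 and Cma1, proteases of connective tissue mast cells, did not (5.30 and 5.34 against 5.02 to 5.84, and 5.09 and 5.15 against 5.05 to 5.58).

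Genes that epithelium is known to express in response to microbes had a median of -0.26 over 22 measured, 21 of them negative. Of the 22, 4 lay beyond the others on the lower side (9.16% of all genes did) and 1 on the higher side (8.4%). Without the wt pool of cage 1 their median in wt was -0.38. Then 15 of 22 lay beyond the others on the lower side (68.2%, against 18.7% of all genes) and 1 on the higher side (14.2% of all genes). Retnlb, the goblet cell protein RELM beta, read 9.52 (wt) and 10.45 (duoxa-/-) in cage 3, against 11.63 and 11.26 in cage 1 and 10.96 and 12.77 in cage 2 (difference -1.67, SE 0.38). Retnla, next to it on chromosome 16, read 8.0 and 8.06 against 8.19 to 9.60, and the wt pool of cage 2 (8.19) was close to cage 3. Fut2, which adds the fucose that gut bacteria feed on, read 8.07 and 8.98 against 9.11 to 10.77 (difference -1.20, and -0.66 with the mean of all probe sets). In both genotypes cage 2 held the highest value of Fut2.

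Not all defence genes went this way. Reg3g and Reg3b, antibacterial lectins, stayed within 14.42 to 14.71 in all pools, near the top of the scale, and Reg3a read 10.76 and 11.13 in cage 3 against 10.20 to 10.67. Pla2g2a, an antibacterial phospholipase, read 9.30 and 9.05 against 9.55 to 10.14. Saa1, serum amyloid A, ranged from 10.86 to 13.70 in cages 1 and 2 and read 11.57 and 12.26 in cage 3, so it overlapped. The overlap was with the wt pool of cage 1 (10.86) only. Without that pool both cage 3 pools of Saa1 lay below the rest (-1.84 in wt, -1.11 in duoxa-/- pools). The same held for Reg3b and Reg3g, by small amounts. Defb1, a defensin of epithelia, was apart at 7.50 and 6.92 against 7.60 to 8.63, as were Lbp, the lipopolysaccharide binding protein (7.81 and 7.45 against 7.90 to 8.97), and Clec7a, the beta-glucan receptor dectin-1 (7.88 and 7.89 against 8.31 to 8.69).

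The median was -0.31 over 11 MHC class II genes and -0.24 over 10 interferon-induced GTPases (0.02 in wt and -0.51 in duoxa-/- pools), with 0 genes of either list beyond the others on the lower side. The wt pool of cage 1 had the lowest GTPase list mean (9.25, against 9.85 and 9.51 in cage 3). Without it the GTPase median in wt was -0.53, and 4 of 10 lay beyond the others on the lower side (18.7% of all genes did). For MHC class II it was -0.24 in wt, with 0 of 11 on that side. Cd74, the invariant chain, read 12.33 and 11.83 in cage 3 and 12.24 to 13.12 in the others, so the duoxa-/- pool of cage 2 overlapped. Chemokines and cytokines (2 beyond the others on the higher and 3 on the lower side, of 32), interferon-stimulated genes (1 and 0 of 25), the type 17 and IL-22 axis (1 and 0 of 12) and MHC class I processing (0 and 0 of 16) had 0 genes apart, with 9.38% of the chemokines and cytokines on the lower side against 9.16% of all genes. Without the wt pool of cage 1, lower-side counts were 10 of 32, 3 of 25, 4 of 12 and 8 of 16 in the same order (18.7% of all genes). Cx3cl1, a chemokine for macrophages and intraepithelial cells, read 8.24 and 8.20 against 8.51 to 8.65 (-0.39, and -0.19 with the mean of all probe sets), and Il15, which sustains intraepithelial lymphocytes, read 9.08 and 9.01 against 8.58 to 8.78.

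The variable immunoglobulin segments Igkv15-103 and Iglv1 were on the lower side. Igkv15-103 read 8.52 and 8.87 in cage 3 against 9.17 to 10.65, and Iglv1 read 10.60 and 10.71 against 11.18 to 11.53. Iglv1 rested on a probe set that can detect related transcripts, and without such probe sets its difference turned to 0.098. Igha, the IgA constant region, read 14.76 and 14.74 against 14.68 to 14.80, near the top of the scale. T cell markers had 0 of 21 beyond the others on either side and B cell markers 1 and 1 of 14 (8.4% of all genes higher, 9.16% lower).

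Macrophage and dendritic cell markers had 8 of 18 beyond the others on the lower side (9.16% of all genes were) and 0 on the higher side, all by small amounts (list median -0.20, list mean 8.15 and 8.08 in cage 3 and 8.22 to 8.36 in cages 1 and 2). Csf1r, the receptor for the macrophage growth factor, read 11.06 and 11.08 against 11.19 to 11.42, and C1qc, a complement chain, read 9.26 and 9.06 against 9.39 to 9.66. Of the tuft cell markers 9 of 14 lay on the lower side (9.16% of all genes did) and 1 on the higher side (8.4%). Their median was -0.32 and their list mean 7.07 and 7.03 against 7.14 to 7.59. Dclk1, a kinase that marks tuft cells, read 7.58 and 7.86 against 8.06 to 8.72 (-0.59, and -0.28 with the mean of all probe sets), and Trpm5, their taste channel, read 7.15 and 6.85 against 7.23 to 7.95. Pou2f3, the factor that tuft cells need to form, read 6.97 and 7.15 against 6.89 to 7.46 and overlapped. The wt pool of cage 1 was the highest for Dclk1 and Trpm5. Siglecf, which eosinophils and tuft cells share, read 7.36 and 7.43 against 7.78 to 8.68, while the eosinophil peroxidase Epx stayed at 4.32 to 4.59.

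Matrix genes of fibroblasts lay lower. Col1a1 read 8.08 and 8.07 in cage 3, against 9.63 and 8.86 in cage 1 and 8.41 and 8.89 in cage 2 (difference -0.87, SE 0.29). Lox, which crosslinks collagen, read 6.26 and 5.99 against 6.72 to 7.15 (-0.80, and -0.41 with the mean of all probe sets), and Col4a1, of basement membranes, read 10.40 and 10.30 against 11.05 to 11.54. Of 13 fibroblast markers 7 lay on the lower side (9.16% of all genes did) and 1 on the higher side (8.4%), with a median of -0.25 (list mean 10.09 and 10.11 against 10.22 to 10.62). The higher one was Lum, a matrix proteoglycan (10.80 and 10.87 against 10.36 to 10.68). Smooth muscle markers had 0 of 15 beyond the others on either side (median -0.01, list mean 11.28 and 11.18 against 10.97 to 11.61).

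Enteroendocrine markers were on the higher side, all 18 with a positive difference and 7 beyond the others, where 8.4% of all genes lay (median 0.34, 0.20 in wt and 0.43 in duoxa-/- pools). Chgb, a granin of hormone granules, read 11.31 and 11.61 in cage 3 against 10.67 to 11.03, and Sct, secretin, lay beyond its 4 other pools (11.28 to 11.57) by a difference of 0.55 (SE 0.11). Pyy, the satiety hormone of the lower gut, read 11.08 and 11.16 against 10.62 to 10.80. Ppy, pancreatic polypeptide, was apart at 7.72 and 7.87 against 6.57 to 7.01. Gcg, the precursor of glucagon-like peptides, did not lie beyond the others (12.25 and 12.18 against 11.89 to 12.31).

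Paneth cell markers had 3 of 7 beyond the others on the lower side (9.16% of all genes were) and 0 on the higher side. Goblet cell markers had 3 of 14 on the lower side and 2 (Tff3 and Zg16) on the higher side, where 8.4% of all genes lay. Lyz1, lysozyme of Paneth cells, differed by -0.08 near the top of the scale (14.56 and 14.55 against 14.57 to 14.67) and Itln1, a lectin, by -0.40 (13.87 and 13.74 against 14.09 to 14.31). Muc2, the main mucin of goblet cells, read 14.07 and 14.18 against 14.10 to 14.30 and overlapped. Muc4, a membrane mucin, was apart at 8.16 and 8.25 against 8.53 to 9.30 (-0.79, but -0.35 with the mean of all probe sets and -0.33 without cross-hybridising ones). Cell cycle genes had 24 of 27 negative and a median of -0.17, with 2 beyond the others on the lower side (7.41%, against 9.16% of all genes). The wt pool of cage 1 had the lowest mean of this list (9.48, against 9.59 and 9.62 in cage 3 and 9.81 to 9.89 in the remaining pools). Without it 24 of 27 lay beyond the others on the lower side (88.9%, against 18.7% of all genes).

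**Figure D5:**
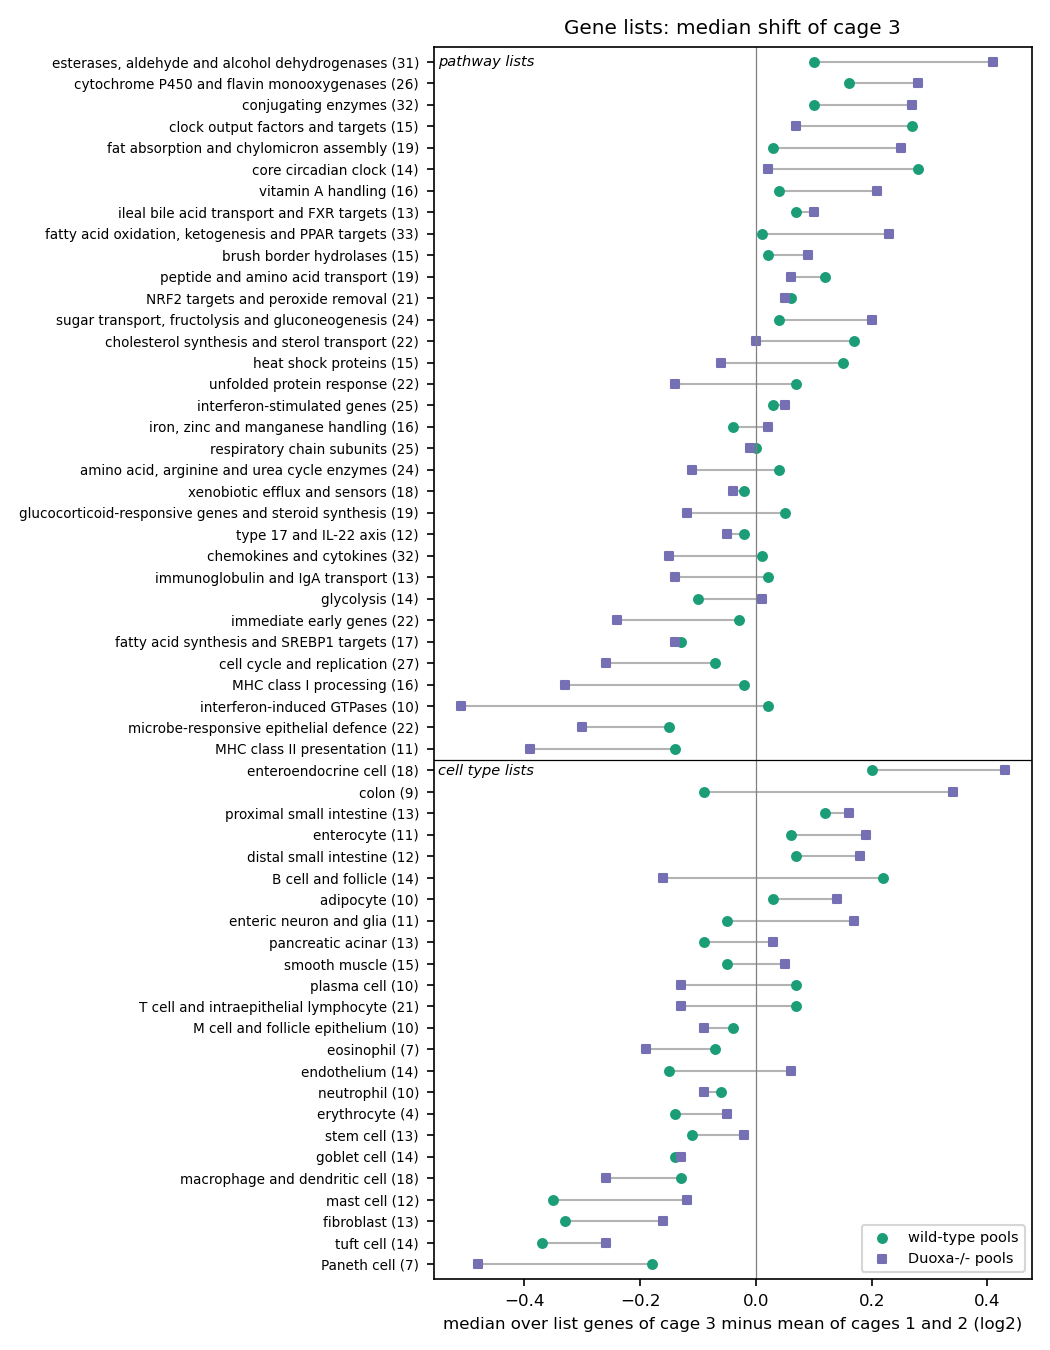
Median over the measured genes of each list of the difference of cage 3 from cages 1 and 2 (x axis, log2), in wild-type pools (circles) and Duoxa-/- pools (squares), for 33 pathway and 24 cell type lists, with the number of measured genes in brackets. The 3 detoxification enzyme lists and enteroendocrine markers lie to the right and tuft cell, fibroblast, mast cell and Paneth cell markers to the left in both genotypes.

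The other lists are given by their counts beyond the other pools, to be read against 8.4% of all genes on the higher and 9.16% on the lower side. Counts on the higher and lower side were 1 and 4 of 22 for immediate early genes, among them Egr1 (9.92 and 10.26 against 10.34 to 11.92), 1 and 4 of 22 for the unfolded protein response and 0 and 0 of 15 for heat shock proteins. Hspa1a, an inducible heat shock protein, was high in the wt pool of cage 3 (10.12, against 8.40 and 7.96 in the other wt pools) and within the range of the duoxa-/- pools (9.62, against 8.79 and 9.78). Counts were 1 and 1 of 19 for glucocorticoid-responsive genes, 1 and 1 of 16 for metal handling and 0 and 2 of 13 for immunoglobulin and IgA transport. By cell type they were 2 and 1 of 9 for colon, 0 and 3 of 13 for stem cells, 1 and 1 of 10 for M cells, 2 and 3 of 14 for endothelium, 1 and 0 of 11 for enteric neurons and glia, and 2 and 0 of 10 for adipocytes. For plasma cells they were 0 and 1 of 10, for eosinophils 1 and 3 of 7, for neutrophils 0 and 1 of 10 and for erythrocytes 0 and 1 of 4. The share on the lower side was thus 42.9% for eosinophils and 25.0% for erythrocytes, in lists of few genes.

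The remaining genes of the higher set were Spsb4, Cfap57, Hapln1, Ttc36, Tppp, Homer2, Krt12, Rasgef1b, Lancl3, Cpne8, Ms4a10, Kyat1 and Dusp12, with differences of 0.72 to 1.13. Homer2, a scaffold protein of signalling complexes, had 10.57 and 10.76 against 9.65 to 9.92. Ttc36 had 10.52 and 10.38 against 9.14 to 9.82. The remaining lower genes were Nebl, B3gnt7, Mal, Mfsd4a, Ckap4, Prss27 and C1qtnf3, with differences of -1.39 to -0.68. With the mean of all probe sets the differences of Cfap57, Homer2, Dusp12 and Mfsd4a were 0.51, 0.57, 0.44 and -0.33, against 0.98, 0.94, 0.72 and -0.72, and that of Ckap4 was -0.39 without cross-hybridising probe sets, against -0.68. Nebl, a nebulin-like protein that binds actin, had 6.54 and 6.65 in cage 3, against 7.52 and 7.82 in cage 1 and 8.27 and 8.32 in cage 2 (difference -1.39, SE 0.22, and -0.50 with the mean of all probe sets). Prss27 and C1qtnf3 were under the median of all probe sets (6.58) in every pool, so they rest on dim signal.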

How the data were processed

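RNA of 2 to 3 animals per pool was extracted with TRIzol, treated with DNase, cleaned on columns and labelled with biotin, per the labels' protocols. The authors deposited log2 values of probe sets, made with RMA in affy per the submitters' processing notes (versions not given in the sources used here). RMA equalises the arrays and compresses dim differences. Of 45037 probe sets that were not controls, 34945 carried 1 gene symbol by the platform's annotation table, 932 more than 1 and 9160 none. Each of 18193 genes was represented by its single-symbol probe set with the highest mean, and 34741 probe sets matched a RefSeq gene identifier (GRCm38.p6), which changed 0 symbols.

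With limma 3.58.1 (R 4.3.3) genotype and cage 3, their interaction, and cages as 3 levels were fitted by lmFit and eBayes, with two-sided tests. Calls were at a p of 0.05 after Benjamini-Hochberg adjustment over all genes. All adjusted and unadjusted p-values are limma's, and SE is that of its coefficient. P-values measure the spread between pools. The fits were tested on simulated data. Python 3.11.15 with pandas 2.3.3 and matplotlib 3.10.9 made tables and figures.

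The series' design text makes a cage a litter, and so the cage number pairs its pools. Deviations of same-numbered pools correlated across genes with r of -0.18, 0.16 and 0.34 in cages 1, 2 and 3. Cage 3, its genes and the 57 gene lists (1093 entries, 953 measured, 3 through an older symbol) were chosen with earlier results of these data known. By rule the text names the 15 genes in each direction with the largest smaller-of-both difference, list members apart in both genotypes or with the smallest p, all clock genes, and the most abundant cell type markers. Other genes were chosen after their values were seen.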

Additional observations from a re-analysis of the deposited data

Results flagged for a closer look

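Among 130 named genes, 6 had 1 of the 4 pools of cages 1 and 2 far from the other 3, where chance gives about 1 in 20. In 4 of them it was the wild-type pool of cage 1: Cyp2d26 at 10.91 (others 9.66 to 9.68), Hsd3b3 at 8.20 (7.25 to 7.39), Homer2 at 9.92 (9.65 to 9.67) and Col4a1 at 11.54 (11.05 to 11.10). For Cyp2d26, Hsd3b3 and Homer2 that pool lay toward the cage 3 pools, and for Col4a1 away from them. Cx3cl1 was lowest in the Duoxa-/- pool of cage 1, at 8.51 (8.63 to 8.65), and Ms4a10 in the Duoxa-/- pool of cage 2, at 9.07 (9.32 to 9.36).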

How the results depend on the processing

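The count in cage 3 against cages 1 and 2 was 3 (1 higher, 2 lower) with each cage as a replicate block and 0 without the genotype term, and ranged from 0 to 46 when 1 pool was left out. Genes apart on the lower side numbered 17 with the mean of all probe sets, and 8 higher and 9 lower genes passed a 2-fold limit, against 1529 and 1667 without a limit. Leaving out 1 of the 4 pools of cages 1 and 2 gave 26 to 58 lower genes (58 without the wild-type pool of cage 1, of which 23 were among the 27) and 33 to 63 higher genes (63 without that pool, 38 of them among the 42). Set against cage 2 alone, cage 3 had 61 higher and 59 lower genes, and against cage 1 alone 35 and 24, comparisons added after seeing the data, as were the wild-type differences against cage 2 alone. The interaction gave 0 to 1 genes, cage 2 against cage 1 gave 0 to 9 and cage 3 against cage 1 gave 0 to 14 with 1 pool left out. Cage 3 against cage 2 gave 1 gene with the mean of probe sets, 27 with centred arrays, 21 with an intensity trend and 0 to 63 with 1 pool left out. The cause of these changes was not tested. Iglv1 reversed to 0.098 without cross-hybridising probe sets and Zg16 to -0.0036 with quantile normalization. Of the settings tried for the 69 genes, 925 values moved by less than the spread between pools, 34 moved by more and 1 reversed. With a cage 3 pool left out, the lone one is assumed to vary like the others, and neither the interaction nor the count of genes apart can be given. Of the 69 genes, 41 higher and 24 lower ones had a mean over all pools at or above the median level, and the others lay below it.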
